A study of Mus musculus with 12 samples.

Results

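GABA-A receptors are the chloride channels through which the transmitter GABA inhibits most neurons of the forebrain. Each receptor is a ring of subunits, usually built from alpha and beta subunits and one gamma or delta subunit. The GABA binding sites lie between alpha and beta subunits, and the site for benzodiazepines lies between an alpha and a gamma subunit. The alpha subunit largely sets where a receptor sits and how it opens, so that hippocampal neurons use some receptors at synapses for brief inhibition and others outside synapses for tonic inhibition. The 7 subunit genes described here are *Gabra2*, *Gabra3*, *Gabra4*, *Gabra5*, *Gabrb1*, *Gabrb2* and *Gabrg1*, picked by symbol from the 55471 genes of the count table. All 7 passed the filter on low counts and were tested.

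RNA was sequenced from primary hippocampal neuron cultures of wild-type CD1 mouse embryos, prepared from litters of mixed sex. The cultures received an LNA gapmer in lipid nanoparticles at day in vitro (DIV) 7 and were collected at DIV 10. A gapmer is a short antisense oligonucleotide that directs RNase H to cut its target RNA. Control cultures (6 libraries) received a negative control gapmer, and *Neuid* KD cultures (6 libraries) received a gapmer against the lncRNA *Neuid*, so that all cultures carried a gapmer and nanoparticles. A single gapmer sequence was used against *Neuid*, and the sources used here do not say whether the 6 libraries of a group came from separate preparations of cells. The p-values therefore measure the spread between these libraries, which may be technical.

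Control libraries held 18002585 to 30914714 counted reads and *Neuid* KD libraries 11152556 to 30573480, and the smallest library was *Neuid* KD replicate 1. Levels are given as CPM, the read count of a gene scaled to the size of its library, here with the TMM method of edgeR. *Neuid* itself (Gm10419) was at 26.0 to 31.0 CPM under the control gapmer and at 6.32 to 9.55 CPM in *Neuid* KD libraries, with a log2 fold change of -1.81 (edgeR's quasi-likelihood test, Benjamini-Hochberg adjusted p = 1.32e-10). The labelled neurons were checked against 16 neuron markers such as *Map2*, *Rbfox3* and *Syn1*, which summed to 8982 to 10510 CPM under the control gapmer and 8877 to 10570 CPM in *Neuid* KD libraries. RNA of other cell types was present as well. The 16 astrocyte markers summed to 2113 to 2665 CPM under the control gapmer and to 4827 to 5407 CPM in *Neuid* KD libraries, without overlap. Reads on chemosensory receptor genes, taken as a measure of background, ranged from 26.7 to 667 CPM under the control gapmer and from 27.1 to 616 CPM in *Neuid* KD libraries.

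Of the 7 subunit genes, 1 was upregulated and 2 were downregulated in *Neuid* KD at an adjusted p under 0.05, and 4 were not called in either direction. Among all 19578 tested genes, 6.31% were upregulated and 2.42% were downregulated by the same rule, and 8.72% were called in either direction. Above an absolute log2 fold change of 0.5, 1 subunit gene was upregulated and 1 was downregulated, beside 2.44% and 0.792% of all tested genes. *Gabrg1* was 3.23 times its control level, *Gabra3* was at 69.4% of it and *Gabrb2* at 83.0%. In these 3 genes the control and *Neuid* KD libraries did not overlap, which was the case for 5.7% of all tested genes. The median log2 fold change was -0.07 over the 7 subunit genes and -0.03 over all tested genes. The sequenced RNA is from whole cultures, so fewer cells of a type and less RNA per cell cannot be told apart. With upper-quartile scaling, which moved the median log2 fold change of all genes from -0.03 to -0.09, 45.5% of the called genes were upregulated, against 72.3% with TMM, and 4 subunit genes were downregulated. With scaling by library size alone these values were 46.2% and again 4 genes.

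*Gabrg1* encodes gamma1, a subunit of limited distribution in the brain that is also made by some glia. In the 6 control libraries it was at 3.36, 3.08, 2.67, 3.39, 2.41 and 3.44 CPM. In the 6 *Neuid* KD libraries it was at 10.5, 8.46, 9.45, 11.4, 7.92 and 11.4 CPM. The lowest *Neuid* KD library was thus more than 2 times as high as the highest control library. The means were 3.06 ± 0.428 CPM under the control gapmer and 9.87 ± 1.5 CPM in *Neuid* KD (SD, n = 6 libraries each). The log2 fold change was 1.69 (SE 0.124, edgeR's quasi-likelihood test, adjusted p = 3.75e-08). These levels are low and rest on 52 to 327 reads per library. *Gabrg1* stayed upregulated in every alternative fit in which it was tested, with log2 fold changes from 1.59 to 1.91.

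*Gabra3* encodes alpha3, an alpha subunit that is prominent in the developing forebrain. In control libraries it was at 26.0, 25.9, 26.6, 23.8, 25.4 and 26.2 CPM. In *Neuid* KD libraries it was at 16.9, 18.9, 19.3, 19.7, 16.2 and 15.9 CPM. Every *Neuid* KD library was below every control library. The mean fell from 25.7 ± 1.00 to 17.8 ± 1.68 CPM (SD, n = 6 libraries each), with a log2 fold change of -0.52 (SE 0.0619, edgeR's quasi-likelihood test, adjusted p = 1.44e-05). With offsets for GC content and gene length fitted over all tested genes, the log2 fold change was -0.45 and was not called (adjusted p = 0.915, and 0.666 with a replicate block). With the same offsets fitted over genes of at least 10 CPM, an alternative chosen after seeing the data, it was -0.59 and was called (adjusted p = 1.9e-08).

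*Gabrb2* encodes beta2, one of the beta subunits that carry the GABA binding site together with alpha. Its control libraries were at 69.8, 79.9, 80.5, 72.2, 83.9 and 81.3 CPM. Its *Neuid* KD libraries were at 54.1, 69.0, 68.3, 67.5, 64.8 and 64.6 CPM. The gap between the groups was narrow, from 69.0 to 69.8 CPM, and *Neuid* KD replicate 1 stood below the others. The mean fell from 77.9 ± 5.58 to 64.7 ± 5.52 CPM (SD, n = 6 libraries each), with a log2 fold change of -0.27 (SE 0.0633, edgeR's quasi-likelihood test, adjusted p = 0.0118). The call was lost without control replicate 2 (log2 fold change -0.27, adjusted p = 0.0529), with no filter on low counts (adjusted p = 0.259) and with the GC and length offsets over all tested genes (adjusted p = 1.0, with or without the replicate block).

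**Figure D1:**
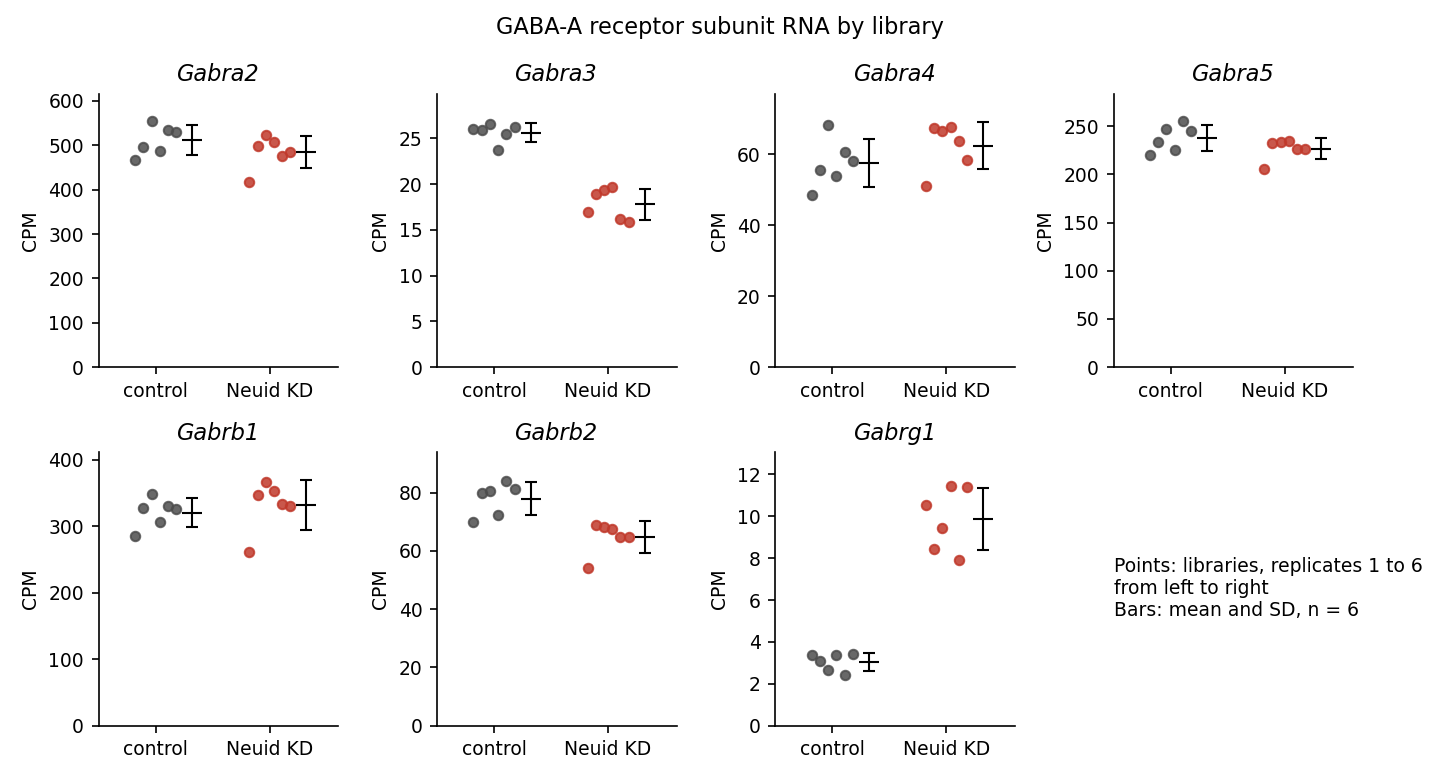
CPM of the 7 subunit genes in each control (grey) and *Neuid* KD (red) library, with the mean and SD of 6 libraries beside the points and each axis starting at 0. *Gabrg1* rises from 2.41 to 3.44 CPM in control to 7.92 to 11.4 CPM in *Neuid* KD, *Gabra3* and *Gabrb2* are lower without overlap, and the groups overlap in the other 4 genes.

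The other 4 genes had overlapping groups and were not called. *Gabra2* encodes alpha2, a subunit of synaptic receptors that is also found at the axon initial segment. It was the most read of the 7 genes, at 468 CPM in the lowest, 514 in the median and 554 in the highest control library. The corresponding *Neuid* KD values were 418, 492 and 522 CPM. The log2 fold change of *Gabra2* was -0.08 (95% interval -0.19 to 0.03, adjusted p = 0.571 by edgeR's quasi-likelihood test). *Gabra5* encodes alpha5, the hippocampal subunit best known for tonic inhibition of pyramidal neurons. It ranged from 220 to 255 CPM under the control gapmer and from 206 to 234 CPM in *Neuid* KD libraries, with a log2 fold change of -0.07 (95% interval -0.17 to 0.03, edgeR adjusted p = 0.564).

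*Gabra4* encodes alpha4, a subunit of receptors outside the synapse that is abundant in dentate granule cells. It ranged from 48.5 to 68.2 CPM (median 56.9) under the control gapmer and from 50.9 to 67.6 CPM (median 65.1) in *Neuid* KD libraries, with a log2 fold change of 0.12 (95% interval -0.04 to 0.28, edgeR adjusted p = 0.505). *Gabrb1*, which encodes beta1, ranged from 286 to 348 CPM under the control gapmer and from 261 to 367 CPM in *Neuid* KD libraries. Its log2 fold change was 0.05 (95% interval -0.09 to 0.19, edgeR adjusted p = 0.817) and its sign depended on the scaling, since it was -0.01 with upper-quartile scaling and with library size alone. *Gabra2* and *Gabra5* were called lower, at log2 fold changes no larger than 0.14 in size, with upper-quartile scaling, with library size alone, and with the GC and length offsets over genes of at least 10 CPM.

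Subunits can be compared with each other only per length of the transcript, so reads were also divided by the kilobases of annotated exon. On this scale of CPM per kilobase, *Gabra5* was highest in control libraries at 79.9 ± 4.56, followed by *Gabra2* at 67.0 ± 4.29 and *Gabrb1* at 23.2 ± 1.57 (SD, n = 6 each). *Gabrb2* (12.3 ± 0.878) and *Gabra4* (9.45 ± 1.09) came next and overlapped. *Gabra3* was at 6.54 ± 0.256 and *Gabrg1* was lowest at 0.388 ± 0.0544. The *Neuid* KD libraries gave 76.2 ± 3.66 for *Gabra5*, 63.4 ± 4.78 for *Gabra2*, 24.0 ± 2.68 for *Gabrb1*, 10.2 ± 0.868 for *Gabrb2*, 10.3 ± 1.09 for *Gabra4* and 4.54 ± 0.428 for *Gabra3*. *Gabrg1* remained the lowest of the 7 in *Neuid* KD, at 1.25 ± 0.190 CPM per kilobase. The gaps between genes depend on the length used, here the merged exons of all transcripts of a gene. Merged exons held 7640 bases in *Gabra2*, 2974 in *Gabra5*, 6360 in *Gabrb2* and 6083 in *Gabra4*. The longest single transcripts held 5852, 2671, 3989 and 4108 bases. With these the lead of *Gabra5* over *Gabra2* would be smaller, and the order was not tested with them.

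On chromosome 5 of GRCm38, the assembly also called mm10, 4 of the 7 genes lie in 1 cluster that spans 1.4 Mb. A further protein-coding gene, *Cox7b2*, lies between *Gabra2* and *Gabra4* and did not pass the filter on low counts. *Gabrg1* (ENSMUSG00000001260) lies at 70751047 to 70842617 and *Gabra2* at 70957597 to 71095849, both on the minus strand. *Gabra4* follows at 71569749 to 71658308 on the minus strand and *Gabrb1* at 71658113 to 72149037 on the plus strand. *Gabra4* and *Gabrb1* are arranged head to head and overlap by 196 bases. The start site of *Gabra2* is 253 kb from that of *Gabrg1*, and those of *Gabra4* and *Gabrb1* are 816 and 815 kb from it. With TMM and all 12 libraries, *Gabrg1* was the 1 gene called among these 4, with log2 fold changes of -0.08, 0.12 and 0.05 for the others.

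The neighbours were also compared within each library, as log2 of the ratio of *Gabrg1* to *Gabra2* reads per kilobase. This ratio does not depend on the scaling of the library. *Gabrg1* alone already separated the groups and was chosen with earlier results known, so the ratio restates its rise and is not separate support. The ratio was -7.44 ± 0.281 in control and -5.67 ± 0.262 in *Neuid* KD (SD, n = 6 libraries each). The increase of 1.77 was seen without overlap, from -7.84 to -7.17 under the control gapmer and from -5.95 to -5.35 in *Neuid* KD libraries (two-sided exact permutation test, p = 0.002165, which is the smallest that 6 against 6 libraries can give). *Neuid* lies on the same chromosome, 37.5 Mb from *Gabrg1*. The other members are on chromosome X (*Gabra3*, 72432681 to 72656848, minus strand), chromosome 7 (*Gabra5*, 57407672 to 57510059, minus strand) and chromosome 11 (*Gabrb2*, 42419757 to 42629028, plus strand). *Gabra5* shares 90368 bases with a protein-coding gene on the opposite strand. Whether the counting used the strand is not given in the sources used here, so reads in overlaps on opposite strands cannot be told apart.

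**Figure D2:**
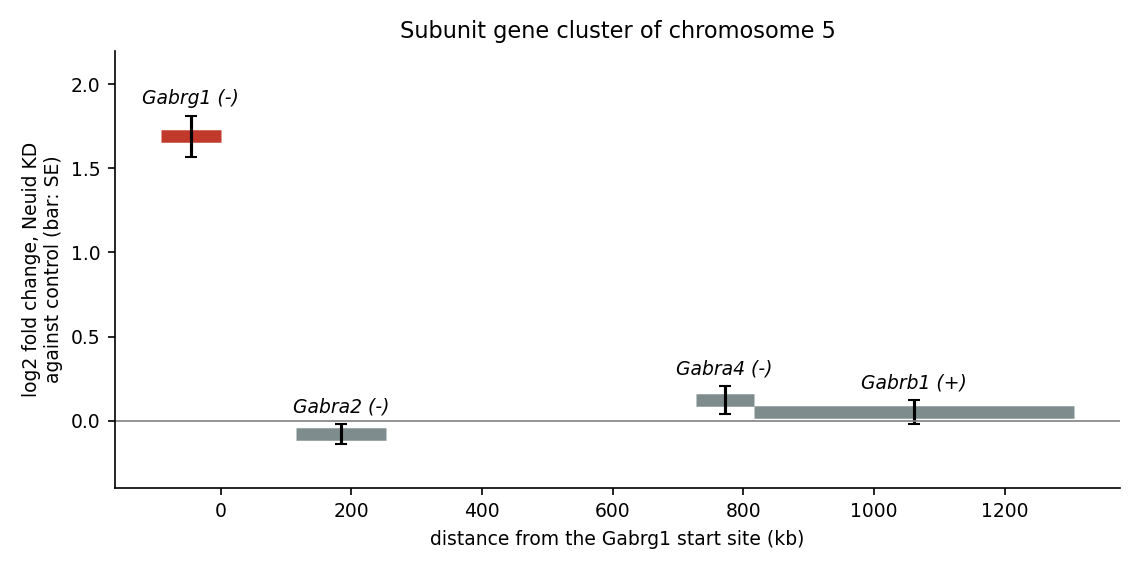
Log2 fold change of the 4 subunit genes of the chromosome 5 cluster against the distance in kb from the *Gabrg1* start site, with bars as long as each gene, the strand in parentheses and error bars of 1 standard error. *Gabrg1* is at 1.69, and the 3 neighbours lie between -0.08 and 0.12.

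The sequences around the start sites are shown for the neighbours *Gabrg1* and *Gabra2* and for *Gabra3*, since the called genes *Gabrg1* and *Gabra3* differ from *Gabra2* in the dinucleotide CG. Each is 300 bases long, from 250 bases before to 50 after the start in RefSeq on GRCm38.p6, read 5′ to 3′ along the minus strand, with CG dinucleotides in capitals. The *Gabrg1* window is chr5:70842568-70842867, that of *Gabra2* is chr5:71095800-71096099 and that of *Gabra3* is chrX:72656870-72657169.
Gabrg1: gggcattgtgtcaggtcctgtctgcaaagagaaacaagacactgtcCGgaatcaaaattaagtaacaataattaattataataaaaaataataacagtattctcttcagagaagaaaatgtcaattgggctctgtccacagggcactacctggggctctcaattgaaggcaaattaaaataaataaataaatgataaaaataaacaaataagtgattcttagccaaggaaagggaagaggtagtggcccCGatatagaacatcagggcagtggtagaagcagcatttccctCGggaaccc
Gabra2: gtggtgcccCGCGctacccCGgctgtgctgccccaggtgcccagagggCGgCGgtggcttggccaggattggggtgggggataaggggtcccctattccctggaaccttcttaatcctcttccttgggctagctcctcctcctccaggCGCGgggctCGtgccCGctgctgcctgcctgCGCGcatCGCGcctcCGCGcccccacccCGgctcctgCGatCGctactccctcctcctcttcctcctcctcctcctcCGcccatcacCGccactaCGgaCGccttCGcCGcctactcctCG
Gabra3: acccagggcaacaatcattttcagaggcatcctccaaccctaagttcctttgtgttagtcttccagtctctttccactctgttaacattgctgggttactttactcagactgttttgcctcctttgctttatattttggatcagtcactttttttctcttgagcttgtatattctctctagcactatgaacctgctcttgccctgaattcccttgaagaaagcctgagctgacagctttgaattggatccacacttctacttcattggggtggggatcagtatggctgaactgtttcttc

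The *Gabrg1* window held 3 CG dinucleotides and 38.3% G and C, and the *Gabra2* window held 25 and 70.0%. Neither of the 2 annotated *Gabra3* starts had a CG, and their windows held 39.3% and 43.0% G and C. Over all 32851 RefSeq promoter windows the median was 7 CG and 52.7% G and C. A count as low as that of *Gabrg1* or lower was found in 31.4% of them, and no CG in 5.43%. The third called gene did not share this feature, since the 3 windows of *Gabrb2* held 11, 9 and 9 CG. The windows of the other uncalled genes held 12 in *Gabra4*, 13 in *Gabra5*, and 25 and 9 in *Gabrb1*.

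A set of 5 motifs was searched on both strands of these windows, and a match is a description of the letters only. The letters TATAAA of the TATA box were present in both *Gabra3* windows, in 1 *Gabrb2* window and in 13.6% of all windows. The *Gabra3* windows overlap and share a single match, which reads along the opposite strand, so it is not a TATA box of this gene's direction. The *Gabrb2* match reads along the strand of the gene. The SOX core AACAAT was present in *Gabrg1*, *Gabra4*, 1 *Gabrb1* and 1 *Gabra3* window and in 10.7% of all windows. The STAT motif TTCNNNGAA was present in *Gabrg1* and 1 *Gabrb1* window and in 8.3% of all windows. The E-boxes CAGCTG and CATATG, in 16.3% and 3.91% of all windows, were in none of the 11 windows of the subunit genes.

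The makeup of the subunit pool was compared as the share of each gene in the reads per kilobase of its class, over 6 alpha, 3 beta and 3 gamma genes. Shares within a class sum to 100 in each library, so a rise of one member goes with a fall of others. In all, 8 shares and ratios were compared by a two-sided exact permutation test over the 924 arrangements of the libraries, and the p-values are unadjusted. *Gabrg1* made up 2.24% ± 0.445 of the gamma RNA in control and 7.10% ± 1.24 in *Neuid* KD (SD, n = 6 libraries each, exact permutation test p = 0.002165). The control libraries lay between 1.69% and 2.72% and the *Neuid* KD libraries between 5.79% and 8.65%, so that gamma1 stayed a minor part of the gamma RNA in all of them.

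Within the alpha RNA, the share of *Gabra3* fell from 3.91% ± 0.222 to 2.86% ± 0.211 without overlap (SD, n = 6 libraries each, exact permutation test p = 0.002165). The share of *Gabra4* rose from 5.62% ± 0.361 to 6.46% ± 0.352 with overlapping groups (SD, n = 6 libraries each, exact permutation test p = 0.006494). *Gabra5* (47.7% ± 0.673 and 48.1% ± 0.712) and *Gabra2* (40.0% ± 0.456 and 40.0% ± 0.701) supplied most of the alpha RNA in both groups, with differences of 0.392 and 0.0141 percentage points (SD, n = 6 libraries each, exact permutation test p = 0.398 and 0.968). The *Gabra5* difference was 0.827 points (exact permutation test, p = 0.02857) in libraries of at least 100 CPM background and 0.074 in the others, 0.142 without control replicate 3, 0.184 without *Neuid* KD replicate 1 and 0.599 without *Neuid* KD replicate 3. The sign of the *Gabra2* difference changed with the length used and with single libraries left out.

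Within the beta RNA, *Gabrb2* fell from 15.2% ± 0.472 to 12.9% ± 0.290 without overlap (SD, n = 6 libraries each, exact permutation test p = 0.002165). *Gabrb1* rose from 28.7% ± 0.267 to 30.3% ± 0.804 (SD, n = 6 libraries each, exact permutation test p = 0.006494), with 5 of the 6 *Neuid* KD libraries above all control libraries and *Neuid* KD replicate 1, at 28.9%, within the control range. With TMM scaling, the summed RNA of the classes did not differ beyond the spread of the libraries. Other scalings were not tried for these sums. In CPM per kilobase, the alpha genes summed to 168 ± 9.96 in control and 159 ± 9.63 in *Neuid* KD (SD, n = 6 libraries each, exact permutation test p = 0.136). The beta genes summed to 80.7 ± 5.72 and 79.0 ± 7.33 (p = 0.673, exact) and the gamma genes to 17.6 ± 1.48 and 17.7 ± 1.11 (p = 0.829, exact).

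**Figure D3:**
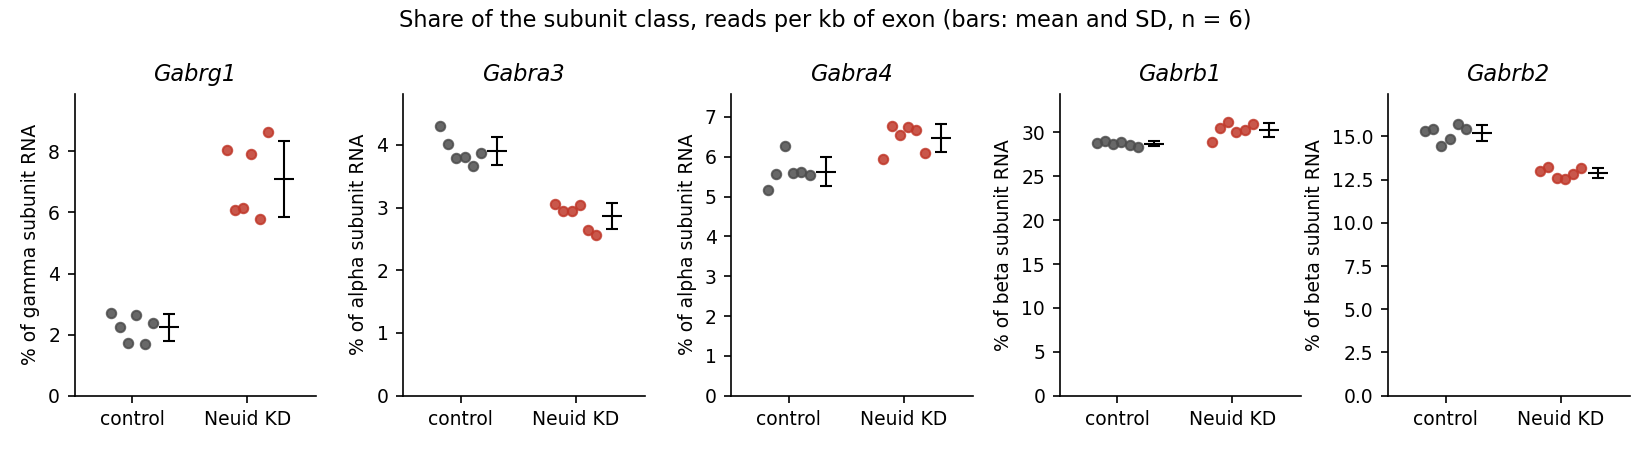
Share of 5 subunit genes in the reads per kilobase of their class in each control (grey) and *Neuid* KD (red) library, with the mean and SD of 6 libraries and axes starting at 0. *Gabrg1* rises from 2.24% to 7.10% of gamma RNA, *Gabra3* and *Gabrb2* fall without overlap, and *Gabra4* and *Gabrb1* are higher with overlap.

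Markers of astrocytes, and some markers of oligodendrocyte precursors, were higher in *Neuid* KD together with *Gabrg1*. Of 15 tested astrocyte markers, 14 were upregulated, with a median log2 fold change of 1.25, beside 6.31% of all tested genes upregulated. *Gja1*, the astrocyte gap junction gene, rose from 27.5 ± 2.53 to 133 ± 5.83 CPM, and the glutamate transporter gene *Slc1a3* rose from 344 ± 37.6 to 817 ± 40.3 CPM (SD, n = 6 libraries each). Of 10 markers of oligodendrocyte precursors 5 were upregulated, among them *Olig2* (log2 fold change 1.67) and *Vcan* (0.31). Their sum was 500 to 659 CPM in control libraries and 1293 to 1518 CPM in *Neuid* KD libraries, and most of it was *Ptprz1*, at 428 ± 47.8 and 1096 ± 86.4 CPM (SD, n = 6 libraries each). The other 5 markers were not called, among them *Pdgfra* (log2 fold change 0.44, edgeR adjusted p = 0.223) and *Cspg4* (0.16, edgeR adjusted p = 0.625), and 2 of the 5 had negative log2 fold changes. The 10 microglia markers summed to only 14.6 to 20.1 CPM in control libraries and 12.7 to 19.7 CPM in *Neuid* KD libraries. Tested markers of mature oligodendrocytes (6), endothelial and mural cells (9) and fibroblasts (7) were not upregulated. Among them, 1 oligodendrocyte marker was downregulated, beside 2.42% of all tested genes. The 14 markers of inhibitory neurons, which release GABA, summed to 652 to 764 and 640 to 746 CPM, and 1 of them, *Erbb4*, was upregulated (log2 fold change 0.80). No gene of these lists was at 0 in all libraries. The part of astrocyte or precursor RNA in the *Gabrg1* result was not tested.

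The astrocyte markers rose by unequal amounts. The log2 fold change was 0.63 for *Slc1a2*, the most read of them, with group means of 1185 and 1834 CPM, and 2.27, 2.28 and 2.64 for *Gja1*, *Apoe* and *S100b*, beside 1.69 for *Gabrg1*. The log2 ratio of *Gabrg1* to the summed astrocyte markers differed by 0.61 between the groups (two-sided exact permutation test, p = 0.002165), but its log2 fold change was smaller than those of these last 3 markers, so the direction of such a ratio depends on the marker. Relative to the summed neuron markers, whose ranges overlapped (exact permutation test, p = 0.751), the log2 difference was 1.67 for *Gabrg1*, -0.55 for *Gabra3* and -0.29 for *Gabrb2*. *Gabra2* and *Gabra5* were also lower on this scale, at -0.10 and -0.09, without overlap. Each of these 5 differences had an exact permutation p of 0.002165, unadjusted, as the smallest the design allows. For *Gabra4* and *Gabrb1* the differences were 0.10 and 0.03, with overlapping groups (exact permutation test, p = 0.0628 and 0.476). These ratios to marker sums were chosen after seeing the data.

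**Figure D4:**
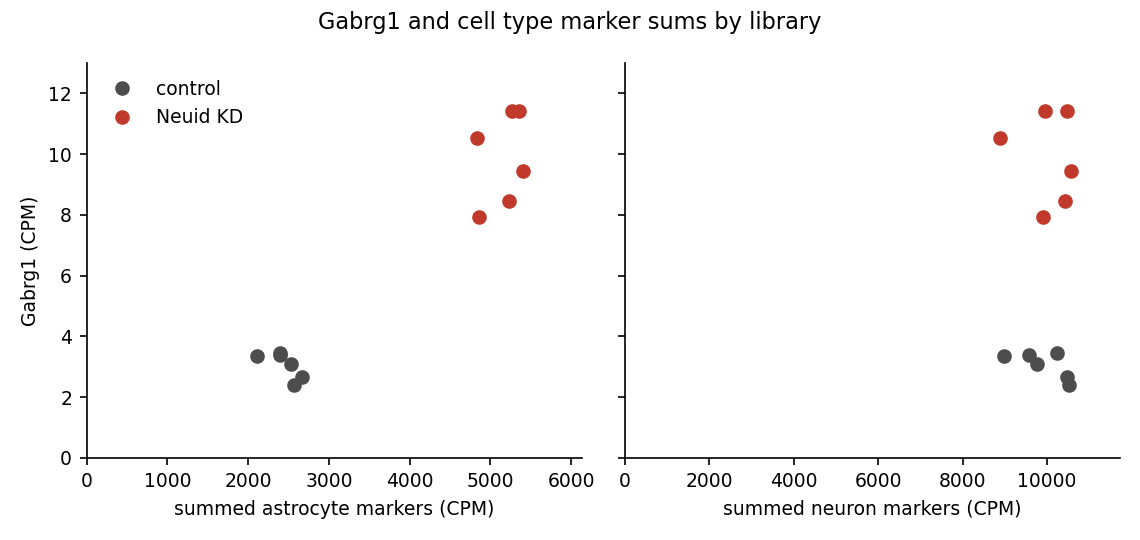
*Gabrg1* in CPM against the summed astrocyte markers (left) and the summed neuron markers (right) in CPM, with 1 point per control (grey) or *Neuid* KD (red) library and axes starting at 0. Both *Gabrg1* and the astrocyte sum separate the groups, at 2113 to 2665 CPM under the control gapmer and 4827 to 5407 CPM in *Neuid* KD, whereas the neuron sums overlap.

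The background on chemosensory genes was at least 100 CPM in 4 control and 3 *Neuid* KD libraries and lower in 2 and 3. *Gabrg1* rose in both sets, with log2 fold changes of 1.59 and 1.91 (edgeR adjusted p = 7.87e-10 and 6.43e-09), and *Gabra3* fell in both, with -0.63 and -0.46 (edgeR adjusted p = 1.26e-05 and 0.000507). *Gabrb2* was at -0.30 in both sets but was called only in the set of low background (edgeR adjusted p = 0.107 and 0.000124). *Gabra2* (-0.13, edgeR adjusted p = 0.0114) and *Gabra5* (-0.13, edgeR adjusted p = 0.0172) were called lower in the set of low background. In the other set they were at -0.10 and -0.07 (edgeR adjusted p = 0.92 and 0.966), and the difference between the sets was not tested.

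**Figure D5:**
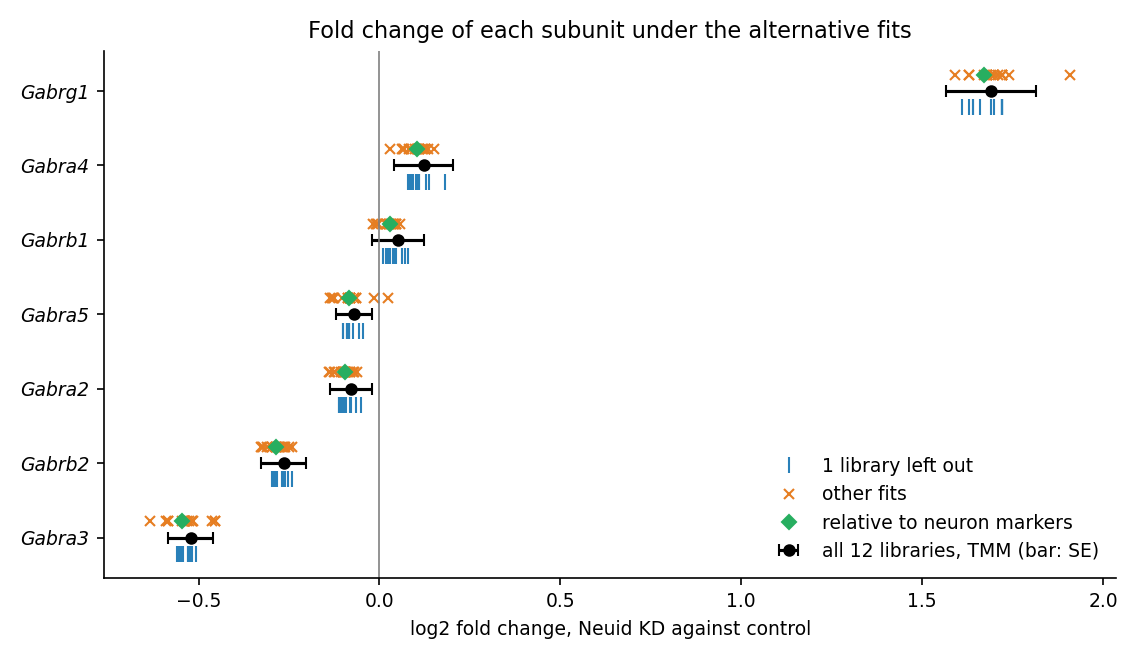
Log2 fold change of each subunit gene with all 12 libraries and TMM (black, bars of 1 standard error), with 1 library left out (blue), under the other fits (orange crosses) and relative to the neuron markers (green). *Gabrg1* stays between 1.59 and 1.91 and *Gabra3* between -0.63 and -0.45, whereas *Gabrb1* and *Gabra5* reach both sides of 0.

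Of the 12 remaining subunit genes of the table, 9 were tested. Of these, 1 was upregulated and 1 was downregulated, beside 6.31% and 2.42% of all tested genes. *Gabrg3*, which encodes gamma3, rose from 9.38 ± 1.04 to 13.1 ± 1.46 CPM without overlap (SD, n = 6 libraries each), with a log2 fold change of 0.49 (adjusted p = 0.00117, edgeR's quasi-likelihood test). The number called was 1 when control replicates 2, 3, 5 or 6 or *Neuid* KD replicates 2, 3 or 4 were left out, and 3 without *Neuid* KD replicate 1.

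Receptors reach and stay at inhibitory synapses through anchoring and trafficking proteins. Of 25 such genes, 3 were upregulated and 1 was downregulated, beside 6.31% and 2.42% of all tested genes. *Plcl1*, whose product binds the trafficking factor GABARAP and takes part in moving receptors to the surface, rose from 9.65 ± 1.43 to 15.4 ± 2.51 CPM (SD, n = 6 libraries each, log2 fold change 0.68, edgeR adjusted p = 0.000553). *Dmd* and *Dag1* encode dystrophin and dystroglycan, parts of a complex found at a subset of inhibitory synapses. Their log2 fold changes were 0.33 and 0.24 (edgeR adjusted p = 0.00099 and 0.0183). Whether these rises came from neurons or from other cells of the cultures, such as astrocytes, was not tested. *Gabarapl2*, of the GABARAP family, fell by 0.34 on the log2 scale (adjusted p = 0.0269, edgeR). The scaffold gephyrin (*Gphn*) was at 93.5 ± 6.59 CPM under the control gapmer and 102 ± 8.36 CPM in *Neuid* KD (SD, n = 6 libraries each, log2 fold change 0.12, edgeR adjusted p = 0.3), and the adhesion protein gene *Nlgn2* was at 241 ± 17.2 and 226 ± 25.5 CPM (log2 fold change -0.09, edgeR adjusted p = 0.647). None of the calls of *Plcl1*, *Dmd*, *Dag1* and *Gabarapl2* held in every fit. *Gabarapl2* lost its call without control replicates 2, 3, 5 or 6 or *Neuid* KD replicates 2 or 3 (edgeR adjusted p = 0.0646 to 0.0857), with thinning to the smallest library (0.183), with no filter (0.17) and with the replicate block (0.0709). *Dag1* lost its call without control replicates 2 or 6 or *Neuid* KD replicates 2 to 6 (edgeR adjusted p = 0.0631 to 0.151) and with no filter (0.429). The number called was 2 without control replicates 2 or 6 or *Neuid* KD replicates 2 or 3. *Gabarapl2* and *Dag1* were also uncalled at 100 CPM background or more and with the GC and length offsets over all tested genes. With these offsets *Plcl1* and *Dmd* lost their calls too (edgeR adjusted p = 0.256 and 0.739). Adding the replicate block gave 0.102 and 0.666.

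The direction of the GABA current depends on chloride transport. Of 12 genes of this kind, 1 was upregulated and 1 was downregulated, beside 6.31% and 2.42% of all tested genes. *Slc12a4*, the potassium chloride cotransporter KCC1, rose from 12.4 ± 1.06 to 16.5 ± 0.837 CPM (SD, n = 6 libraries each, log2 fold change 0.42, edgeR adjusted p = 0.000258). *Slc12a7*, the cotransporter KCC4, fell from 7.83 ± 1.38 to 4.24 ± 1.08 CPM (SD, n = 6 libraries each, log2 fold change -0.90, edgeR adjusted p = 0.000983). Both were without overlap between the groups. *Slc12a4* lost its call in libraries of at least 100 CPM background (edgeR adjusted p = 0.0706). It also lost it with the GC and length offsets over all tested genes (edgeR adjusted p = 0.271, and 0.307 with the replicate block). *Slc12a7* kept its call in each of these fits. The neuronal cotransporter KCC2 (*Slc12a5*) was at 242 ± 18.4 CPM under the control gapmer and 233 ± 25.4 CPM in *Neuid* KD, with a log2 fold change of -0.05 (adjusted p = 0.832, edgeR).

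The genes whose levels went most closely with each subunit were found by Pearson's r of log2 CPM over the 12 libraries among 15204 genes, as a description that also holds the group difference and the background shared by all genes. Among the 3 genes closest to *Gabrg1* were *Acss1* and *Plce1*, both with r = 0.98 and log2 fold changes of 0.95 and 0.85. *Igfbp3* (r = 0.972) and *Serpini1* (r = 0.965) were among those closest to *Gabra3*, with log2 fold changes of -0.41 and -0.35. For *Gabrb2* the closest were *Pcdh8* (r = 0.982), *Rab3b* (r = 0.973) and *Acsl4* (r = 0.971), which fell by 0.27, 0.36 and 0.27 on the log2 scale. The closest genes of the uncalled subunits were themselves uncalled, such as *Tnpo2* (r = 0.985) for *Gabra2*, *Tspyl4* (r = 0.983) for *Gabra5*, *Ankrd13c* (r = 0.977) for *Gabra4* and *Atrx* (r = 0.99) for *Gabrb1*.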

How the data were processed

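The authors aligned 50-base single reads of stranded total-RNA libraries to mm10 with STAR, and counted reads per gene with featureCounts. They deposited whole-number counts, not normalized, for 55471 genes in 12 libraries, and 55144 were given a symbol from the GENCODE annotation of GRCm38. The strand setting and annotation release of the counting are not given in the sources used here. Genes kept by filterByExpr went into the quasi-likelihood test of edgeR 4.0.16 (R 4.3.3) with TMM and Benjamini-Hochberg adjustment over all 19578 genes, and called at an adjusted p under 0.05. The test gives no standard error, so SE was computed from the log2 fold change and the F statistic. The 95% intervals are 1.96 SE to each side, a normal approximation that can be too narrow for 12 libraries. The study used DESeq2 with RUVseq, and that combination was not run here. The alternatives included DESeq2 without such factors, limma-voom, and edgeR with factors computed in the manner of RUVs (DESeq2 1.42.0, limma 3.58.1). Offsets for GC content and length, a replicate block, the background as a covariate, other filters and scalings, thinning to the smallest library and leaving out each library were also tried. The test was first checked on simulated data. The depth, 11152556 to 30914714 reads, limits genes of low level.

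Same-numbered libraries of the 2 groups were not treated as paired in the main fit. Their deviations correlated at -0.637 to 0.774. Replicates 1 and 3, with similar chemosensory background in both groups, gave 0.774 and 0.751. Replicates 2, 4 and 5, whose background differed, gave -0.454, -0.637 and -0.552. These correlations went with the background and cannot decide whether the libraries were paired. Shares used reads per kilobase of merged exons. The text names the 7 members, called genes of 3 lists (other subunits, anchoring and trafficking, chloride transport) with a few uncalled ones for reference, markers, and genes most correlated with a member. The *Gphn*, *Nlgn2* and *Slc12a5* values were chosen for their known roles. Members and lists were chosen with earlier results of these data known. Some listed genes are not reported here.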

Additional observations from a re-analysis of the deposited data

Results flagged for a closer look

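Among 48 groups of 6 libraries checked for 1 library standing apart by Dixon's criterion, 5 met it, where chance gives about 1 in 20. Of these, 4 concerned *Neuid* KD replicate 1, the smallest library. *Gabra5* was at 205.7 CPM there against 226 to 234 CPM in the other 5 *Neuid* KD libraries. *Gabrb1* was at 261.4 CPM against 330 to 367 CPM, and *Gabrb2* was at 54.06 CPM against 64.6 to 69.0 CPM. *Dmd* was at 73.09 CPM against 88.6 to 92.3 CPM. The summed neuron markers were also lowest in this library among the *Neuid* KD libraries, at 8877 CPM. Without it the log2 fold change of *Gabrb2* was -0.26 and stayed called (edgeR adjusted p = 0.00183). The share of *Gabra5* in the alpha RNA was 46.45% in control replicate 3 and 47.7% to 48.5% in the other control libraries.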

How the results depend on the processing

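*Gabrg1* and *Neuid* kept their direction and call in every alternative that tested them. Against 1235 genes upregulated and 473 downregulated with all libraries and TMM, the alternatives gave 711 and 229 with no filter, 285 and 60 with GC and length offsets, 317 and 57 with the replicate block and these offsets, 651 and 205 in libraries of at least 100 CPM background, and 477 and 155 above a log2 fold change of 0.5. The downregulated genes numbered 1259 with upper-quartile scaling, 1260 with library size only, 982 and 936 with 1 or 2 RUVs factors, 781 at a mean of at least 1 CPM, 1474 with offsets over genes of at least 10 CPM, 987 with the background covariate and 799 under 100 CPM background. Leaving out single libraries gave 822 to 1208 upregulated (822 without *Neuid* KD replicate 2) and 355 to 780 downregulated (780 without *Neuid* KD replicate 1).

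Members called lower numbered 4 with upper-quartile scaling, library size only, offsets over genes of at least 10 CPM and under 100 CPM background. They numbered 1 with no filter, at least 100 CPM background, a log2 fold change above 0.5 and without control replicate 2 (1 to 2 over single libraries left out), and 0 with the GC and length offsets, with and without block. With offsets over genes of at least 10 CPM no member was higher, since *Gabrg1* lay below that level. The other subunits called (2 with TMM) were 1 with no filter and 0 with both offset fits, at least 100 CPM background and the 0.5 threshold (1 to 3 over single libraries). Anchoring genes called (4) were 7 with library size only and under 100 CPM background, 8 with either RUVs fit, a mean of 1 CPM and the covariate, 10 with offsets over genes of at least 10 CPM, 2 with no filter and at least 100 CPM background, 1 above 0.5 and 0 with both offset fits (2 to 5 over single libraries). Chloride transport genes called (2) were 5 with upper-quartile scaling, 6 with library size only, offsets over genes of at least 10 CPM and under 100 CPM background, 4 with either RUVs fit and the covariate, and 1 with both offset fits, at least 100 CPM background and the 0.5 threshold. The causes were not tested.

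Under 100 CPM background, exact tests of 2 against 3 libraries cannot go below 0.1, and the differences were -0.75 points for the *Gabra3* share, 2.0 for *Gabrb1*, 5.01 for *Gabrg1* and 2.03 for log2 of *Gabrg1* to *Gabra2*. At 100 CPM or more the *Gabrb1* share differed by 1.25 points (exact permutation test, p = 0.0857). Signs turned for *Gabrb1*, at -0.00958 with upper-quartile scaling, -0.00721 with library size only, -0.0168 with offsets over genes of at least 10 CPM and -0.00276 at 100 CPM background or more, and for *Gabra5*, at 0.0244 with block and offsets. The *Gabra2* share differed by -0.274 points at 100 CPM or more, -0.0619 with no length, -0.0734 with the longest transcript and -0.167 to 0.246 without single libraries. The replicate block gave 1299 upregulated and 542 downregulated genes, and the same numbers of members. *Gabarapl2* lost its call with it (edgeR adjusted p = 0.0709). Of the 6 numbers, 2 had their library's best match in the same number.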
